A study of Drosophila melanogaster with 6 samples.

Results

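The proteasome subunit genes were followed in macrophages sorted from Drosophila melanogaster embryos. The members were the 47 of 17494 listed genes whose symbol starts with Prosalpha, Prosbeta, Rpn or Rpt followed by a digit. They comprised 7 alpha and 7 beta genes of the core particle, 10 genes of the regulatory particle base, 8 genes of its lid and 15 testis-type paralogues, whose symbols end in T or R with or without a number. Membership was set by symbol alone, although the set was chosen with earlier results of these data known. They lie on chromosome X and on both arms of chromosomes 2 and 3.

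The study compared macrophages of 2 genotypes by RNA sequencing, with 3 samples of each, to ask which transcripts depend on the transcription factor Dfos (kay). Control embryos, in a w background, carried srpHemo-Gal4, a macrophage driver, and the macrophage marker srpHemo-3xmCherry. The mac>DfosDN embryos carried the same driver and marker and in addition UAS-DfosDN, a dominant negative form of Dfos, so that the groups share the background, the driver and the marker and differ in the transgene. Embryos were kept at 29°C and labelled stage 11, while the paper's methods reach into early stage 12, and each sample pooled macrophages from many embryos of several collections sorted by mCherry fluorescence. Libraries were made with a kit for 3′ ends by the paper's account, whereas the labels name only standard Illumina protocols. The replicates are called samples here, and the p-values measure the spread between them.

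The proteasome is the large protease complex that degrades proteins tagged with ubiquitin. Alpha rings and beta rings stack into the barrel of the core particle, with the cutting sites inside, and the regulatory particle caps its ends. The base of that cap holds a ring of ATPases that unfold the substrate, and the lid removes the ubiquitin chain. All cells need the complex, and its subunit genes are known to be transcribed together in many tissues.

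The deposited values are on the TPM scale (transcripts per 1e+06, which divides reads by the length of the gene), but every value of 1 or more has lost its decimal point. The point was restored from the fact that each value stands for a whole number of reads once the exon length of the gene and a scale factor particular to the sample are taken out. Where more than 1 power of 10 gave whole reads, the likeliest was taken under a model that did not use the genotypes. The restored libraries held between 8399427 and 9849803 reads, and all levels below are TPM scaled by TMM factors, written as TPM. Differences are mac>DfosDN minus control on the log2(TPM + 1) scale, which understates the change of low genes. They were tested with limma over 7542 genes, and a gene was called when its adjusted p, by the Benjamini-Hochberg method over all of these, was under 0.05.

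The gene of Dfos, kay, served as a check of the labels. Its restored reads numbered 368, 784 and 665 in the control group against 941, 945 and 866 with the transgene. By the paper's account, transcripts of the transgene can be part of the count. Every mac>DfosDN sample lay above every control sample (exact permutation test, 2-sided, p = 0.1, the lower limit of this test for groups of 3), and kay was not called (difference 0.67, limma with Benjamini-Hochberg adjustment, adjusted p = 0.297). All 13 macrophage markers were detected in every sample. Their summed level was 15750 to 21560 TPM in control and 8644 to 13180 TPM in mac>DfosDN samples. NimC4, a phagocytic receptor, made up most of that sum with 13690, 14910 and 18120 against 9560, 6807 and 11330 TPM. Of the 13 markers 10 were below 0, with a median difference of -0.49. The only marker called by limma was gcm, a transcription factor of early macrophages, which was higher (difference 0.91, Benjamini-Hochberg adjusted p = 0.032). Limma-voom called gcm too and in addition NimC4 and the matrix protein gene SPARC, both lower (Benjamini-Hochberg adjusted p = 0.0128 and 0.0274). The midgut markers GATAe and fkh together reached 1.13 to 3.28 TPM in control and 5.60 to 11.6 TPM in mac>DfosDN samples, and neither was called. None of the tested markers of muscle and mesoderm (5), nerve and glia (4), epidermis (3), trachea (2) or crystal cells (1) was called. The tested crystal cell marker was lz, at a mean of 1.88 TPM. PPO1 and PPO2 were set aside because the place of a decimal point was uncertain. By the likeliest powers PPO2 had 4527, 999 and 1398 TPM in control and 1811, 234 and 1825 TPM in mac>DfosDN samples, with a lowest posterior probability of 0.52. Differences of crystal cell content were therefore not tested with these 2 genes. The part of these marker differences in the values below was not tested. In sorted bulk samples fewer cells of a type and less RNA per cell cannot be told apart.

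Of the 32 members that are not testis-type, 30 were restored with reads and passed the filter on low reads, with 93 to 2108 reads in a sample. Prosalpha1 was listed at 0 in all 6 samples, and Rpn12 was set aside because the place of a decimal point was uncertain. Their levels were high among the genes of these cells. All 30 had a mean level above the median over all genes tested, which was 10.01 TPM, and they stood between percentile 56.3 and percentile 93.7 of that distribution. The summed level of the 30 was 2364, 2055 and 2708 TPM in control and 2173, 1952 and 2053 TPM in mac>DfosDN samples. These sums correspond to between 0.195% and 0.271% of all transcripts on this scale.

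**Figure D1:**
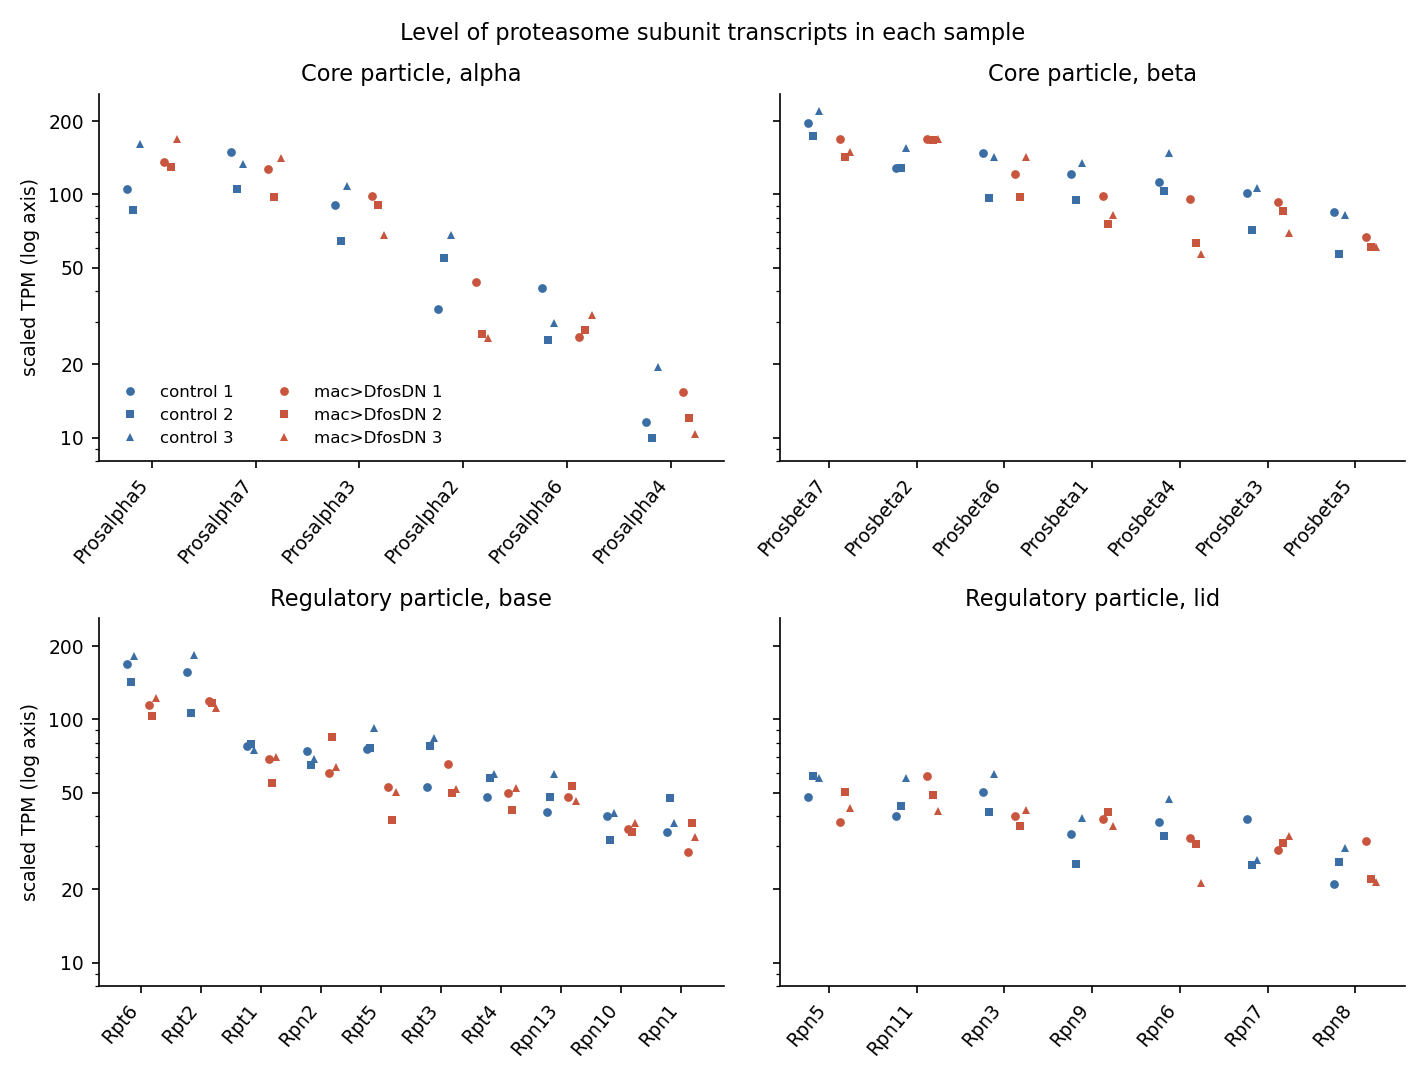
Scaled TPM (vertical log axis) of the 30 tested subunit genes in each of the 6 samples, in panels for core alpha, core beta, base and lid, with genes ordered by mean level. Blue marks are control and red marks mac>DfosDN samples, with a mark shape for each replicate. Prosalpha4 has the lowest mean level, and its highest mark, 19.4 TPM, is close to the lowest mark of Rpn8, 21.0 TPM. For Rpt5 and Rpt6 every red mark is below every blue mark.

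No subunit gene was called. Of the 30 tested members 0 had an adjusted p under 0.05, against 1.58% of all genes tested (0.875% lower and 0.703% higher). At an unadjusted limma p under 0.05 there were 6 lower members and 1 higher member, against 8.68% and 7.84% of all genes. Limma-voom on the restored reads, the test of the study's methods, called 1 of the 30 lower, Rpt5, against 2.45% of all genes. Limma on reads per 1e+06 and limma after a restoration with a mean for each genotype also called Rpt5 alone, against 3.29% and 3.63% of all genes. After that restoration 28 members were tested.

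Most differences were below 0 without passing the test. The difference was below 0 for 25 of the 30 members, against 50.8% of all genes tested, and for 1 of these 25, Rpn13, it was 0.00 when rounded. The 30 differences come from the same 6 samples and are not independent of each other. The median difference of the 30 was -0.17, against -0.01 over all genes tested and -0.01 over the 2827 genes within the members' range of level, of which 51.8% were below 0. The number below 0 was between 20 and 26 with 1 sample left out at a time, and the median was between -0.26, without the second control sample, and -0.14, without the third.

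The groups did not overlap for 6 members that were lower in every mac>DfosDN sample, against 11.4% of all genes, and for 1 that was higher, against 10.7%. Among genes within the members' range of level these shares were 13.7% and 11.9%. The 6 were Rpt5, Rpt6, Rpt1, Prosbeta4, Prosbeta7 and Rpn6, and the 1 was Prosbeta2. The other 23 overlapped. The 95% interval of the difference reached between 0.30 and 0.64 to either side, with a median of 0.42. These intervals are not adjusted for the number of genes tested. They left out 0 for 7 members, none of which was called. Differences beyond these widths could therefore also miss the call, as -0.78 for Rpt5 did.

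**Figure D2:**
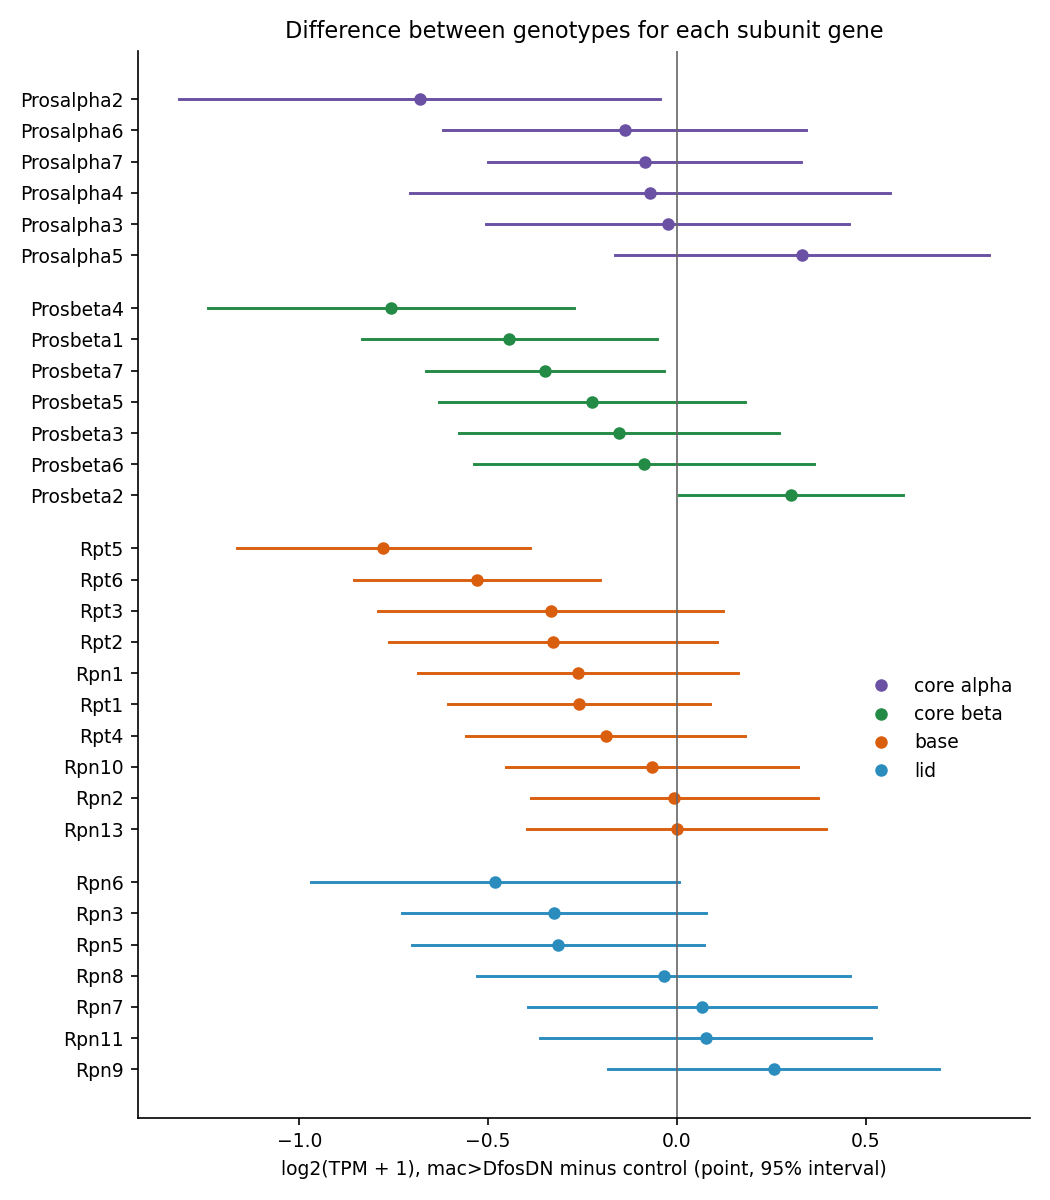
Difference between mac>DfosDN and control on the log2(TPM + 1) scale (horizontal axis) for each of the 30 subunit genes, with points for the estimate and lines for the 95% interval from limma, coloured by subcomplex. The estimates run from -0.78 for Rpt5 to 0.33 for Prosalpha5, and all 10 base genes lie at or below 0.

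The alpha genes form the outer rings of the core particle, whose tails close the entry to the barrel. Their median difference was -0.08, the groups overlapped for all 6 that were tested, and 0 were called. Their summed level was 433, 346 and 521 TPM in control and 447, 383 and 445 TPM in mac>DfosDN samples. The mac>DfosDN sums lay inside the control range.

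Prosalpha5 had the highest TPM of the alpha genes over the 6 samples, 131 against 126 for Prosalpha7, but over control samples alone Prosalpha7 was higher, with 129 against 118. Prosalpha5 had 106, 86.3 and 162 TPM in control and 136, 129 and 168.5 TPM in mac>DfosDN macrophages. The groups overlapped because the third control sample was above the first and second mac>DfosDN samples. Its difference, 0.33 (standard error 0.22), was the largest above 0 among the members and did not pass the test (limma with Benjamini-Hochberg adjustment, adjusted p = 0.498). Prosalpha4 had the lowest mean level of all tested members, 13.1 TPM. It had 11.6, 9.95 and 19.4 TPM in control and 15.4, 12.0 and 10.4 TPM in mac>DfosDN samples. The first of the mac>DfosDN values rests on 140 rather than 14 reads, with a posterior probability of 0.977. The groups overlapped fully, and the sign of its difference, -0.07, turned when the third sample of either group was left out.

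Prosalpha2 had 33.9, 55.0 and 68.3 TPM in control and 43.7, 26.6 and 25.6 TPM in mac>DfosDN samples. The first control sample was below the first mac>DfosDN sample, so that the groups overlapped. Its difference was -0.68 (standard error 0.29, adjusted p = 0.271 by limma with Benjamini-Hochberg adjustment), and it lay between -0.96 and -0.47 with 1 sample left out at a time. In 2 of its samples a larger power of 10 than the smallest possible was taken, with a posterior probability of at least 0.974. A choice of a larger power was made for 21 of the 180 values of the 30 members, in 16 of the members. The remaining alpha genes Prosalpha3, Prosalpha6 and Prosalpha7 had differences of -0.02, -0.14 and -0.09.

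Prosalpha1 gave no level. It was listed at 0 in every sample, and so was CG30382, its neighbour 1734 bases away on the same strand of chromosome arm 2R, which current annotation names Prosalpha1R. The rows of both genes carry Entrez numbers of both. Of the 206 rows of the files with several Entrez numbers, 176 (85.4%) were at 0 in all samples, against 21.7% of the rows with 1 number. A value of 0 in such a row is therefore not read as missing expression.

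The beta genes form the inner rings of the core particle, and Prosbeta1, Prosbeta2 and Prosbeta5 carry its cutting sites. Their median difference was -0.22, with 6 of 7 below 0. Their summed level was 892, 725 and 988 TPM in control and 815.5, 694 and 729 TPM in mac>DfosDN samples, and the groups overlapped because the second control sample was low.

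None of these catalytic genes passed the test, and differences between them were not tested. Prosbeta1, of the caspase-like site, had 121, 94.8 and 135 TPM in control and 98.5, 75.3 and 82.2 TPM in mac>DfosDN samples. The second control sample was below the first mac>DfosDN sample and above the rest of that group, and the difference was -0.44 (standard error 0.17, adjusted p = 0.242 by limma with Benjamini-Hochberg adjustment).

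Prosbeta2, of the trypsin-like site, had 128, 128 and 154.5 TPM in control and 169, 167 and 168 TPM in mac>DfosDN samples. Every mac>DfosDN sample was above every control sample, and these 3 samples were close to each other. The difference was 0.30 (standard error 0.13, 95% interval 0.0046 to 0.60), and it did not pass the test over all genes (limma with Benjamini-Hochberg adjustment, adjusted p = 0.297). In 2 mac>DfosDN samples its value rests on a larger power of 10 than the smallest possible, with a posterior probability of at least 0.9997.

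Prosbeta5, of the chymotrypsin-like site and the lowest beta gene by TPM over the 6 samples, had 84.5, 56.9 and 82.2 TPM in control and 66.9, 60.8 and 60.7 TPM in mac>DfosDN samples. All 3 mac>DfosDN samples lay between the lowest and the other control samples. Its difference was -0.22 (adjusted p = 0.592 by limma with Benjamini-Hochberg adjustment).

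Prosbeta4, a beta gene without a cutting site, had the second largest difference below 0 among the members. Its levels were 113, 103 and 147.5 TPM in control and 96.2, 63.4 and 57.2 TPM in mac>DfosDN samples. The groups did not overlap, although the first mac>DfosDN sample was close to the second control sample. The difference was -0.76 (standard error 0.22, 95% interval -1.24 to -0.27, adjusted p = 0.116 by limma with Benjamini-Hochberg adjustment). Its value in the first control sample rests on a choice between 75 and 750 reads, and 750 was taken with a posterior probability of 0.979, next to 669 and 847 reads in the other control samples. Prosbeta4 lies on chromosome 2L from 16731180 to 16732133 of the BDGP6.54 annotation.

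Prosbeta7, another beta gene without a cutting site, had the highest TPM of all members over the 6 samples, 175.5, while Prosbeta2 was higher over mac>DfosDN samples alone, with 168 against 154. Its levels were 197, 174 and 220 TPM in control and 170, 143 and 149 TPM in mac>DfosDN samples. The groups did not overlap, and the difference was -0.35 (standard error 0.14, adjusted p = 0.252 by limma with Benjamini-Hochberg adjustment). Prosbeta3 and Prosbeta6 had differences of -0.15 and -0.09.

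The base was the subcomplex with the lowest median difference, -0.26, and all 10 of its genes were at or below 0. Its summed level was 770, 730 and 882 TPM in control and 642, 615 and 638 TPM in mac>DfosDN samples. Every mac>DfosDN sum was below every control sum, and the ratio of the group means was 0.795. The sums of the other subcomplexes overlapped between the groups, with ratios of 0.982 for alpha, 0.859 for beta and 0.915 for lid genes. The difference between subcomplexes was not tested.

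**Figure D3:**
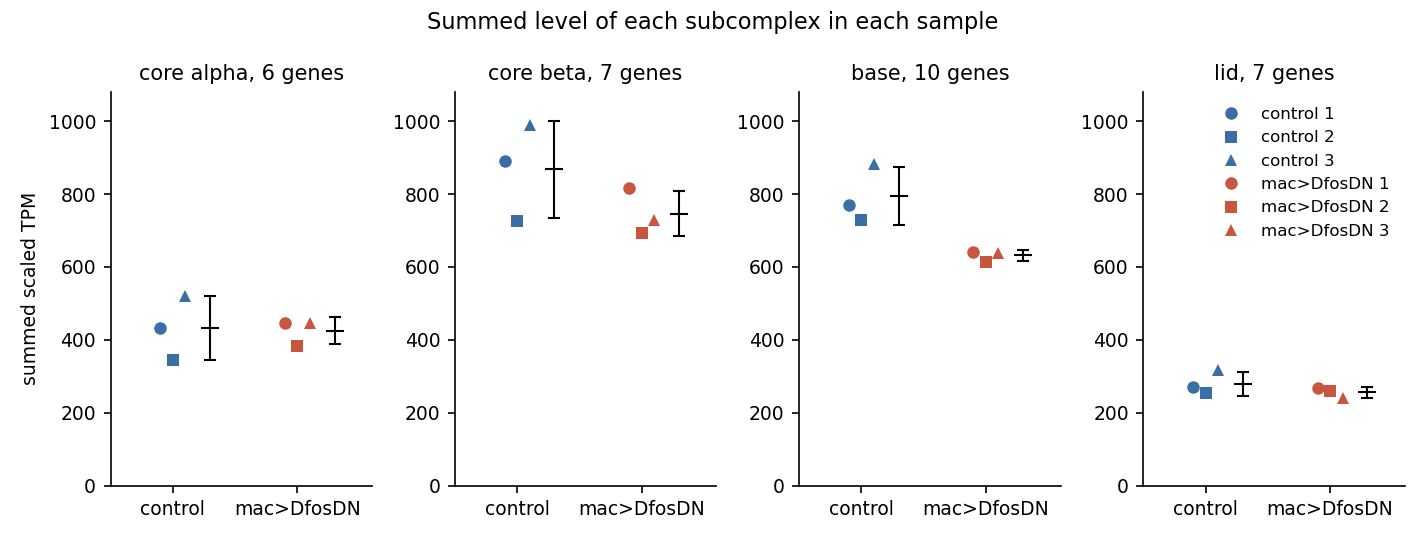
Summed scaled TPM (vertical axis) of the tested genes of core alpha, core beta, base and lid in each sample, with the group mean and SD beside the marks (n = 3). The base sums of 642, 615 and 638 TPM in mac>DfosDN samples are below all control sums, of which 730 TPM is the lowest.

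Rpt5, an ATPase of the base ring, had the largest difference of the members. It lies on chromosome 3R from 23752876 to 23754623 and had 1004, 986 and 1055 restored reads in the control group and 661, 424 and 624 with DfosDN. On the TPM scale these were 75.5, 76.3 and 92.0 against 52.7, 38.7 and 50.2. The groups were well apart, the lowest control sample being above the highest mac>DfosDN sample by more than the spread of the mac>DfosDN samples.

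The difference of Rpt5 was -0.78 (standard error 0.17, 95% interval -1.17 to -0.39). It was not called (adjusted p = 0.0648 by limma with Benjamini-Hochberg adjustment), and it stood close to the threshold. The adjusted p of limma was 0.0365 with voom on the restored reads, 0.0302 on reads per 1e+06 not divided by length, and 0.0401 when the model of restoration had a mean for each genotype. The difference was between -0.86 and -0.64 with 1 sample left out at a time, with adjusted p between 0.0886 and 0.232. None of its values rested on a choice of a larger power of 10.

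Rpt6 and Rpt2, further ATPases of the ring, had the highest TPM of the base over the 6 samples, 139 and 132. Rpt6 had 169, 143 and 182 TPM in control and 115, 103.5 and 122 TPM in mac>DfosDN samples. The groups did not overlap. The difference was -0.53 (standard error 0.15, 95% interval -0.85 to -0.20, adjusted p = 0.103 by limma with Benjamini-Hochberg adjustment). Of the last 500 exon bases of Rpt6, 182 overlap CG1801 on the opposite strand. Such an overlap was found for 13 of the 32 members that are not testis-type, and whether the counting used the strand is not given in the sources used here.

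The other ATPases of the ring lay below 0 by less. Rpt1 had 77.3, 79.2 and 74.5 TPM in control and 68.8, 54.6 and 70.2 TPM in mac>DfosDN samples, a difference of -0.26 with groups that did not overlap. Its control samples were the closest to each other of all members, with a coefficient of variation of 3.07%. Rpt2, Rpt3 and Rpt4 had differences of -0.33, -0.33 and -0.19 with groups that overlapped.

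Of the base genes that are not ATPases, the scaffold Rpn1 binds ubiquitin and shuttle proteins. It had the lowest TPM of the base over the 6 samples, 36.4, close to Rpn10 with 36.8, while over control samples alone Rpn10 was lower. Rpn1 had 34.6, 47.4 and 37.6 TPM in control and 28.6, 37.4 and 32.9 TPM in mac>DfosDN samples. The groups overlapped, and the difference was -0.26 (adjusted p = 0.541 by limma with Benjamini-Hochberg adjustment). The scaffold Rpn2 was at -0.01, and the ubiquitin receptors Rpn10 and Rpn13 were at -0.07 and 0.00.

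The 7 tested lid genes had a median difference of -0.03, with 4 below 0. Their summed level was 270, 254 and 316 TPM in control and 268, 260 and 240 TPM in mac>DfosDN samples, and the groups overlapped. These lid members were at lower levels than the base genes, with medians of 35.9 and 63.8 TPM. Sem1, a lid subunit whose symbol is outside the rule, is not part of these values and had a mean level of 298 TPM. Mean levels of the tested lid genes ran from 25.2 TPM for Rpn8 to 49.0 TPM for Rpn5, and those of the base from 36.4 TPM for Rpn1 to 139 TPM for Rpt6.

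Rpn11, the enzyme that removes the ubiquitin chain, had 39.9, 44.2 and 57.5 TPM in control and 58.3, 48.7 and 41.9 TPM in mac>DfosDN samples. The ranges lay on top of each other, and the difference was 0.08. Its partner Rpn8, the lowest of the tested lid genes, had 21.0, 25.8 and 29.6 TPM in control and 31.6, 22.0 and 21.4 TPM in mac>DfosDN samples. The difference of -0.03 turned its sign without the third control sample or without the second or the third mac>DfosDN sample.

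The remaining lid genes encode scaffold subunits. Rpn5, the highest of the tested lid members, had 47.8, 58.3 and 57.2 TPM in control and 37.7, 50.1 and 43.2 TPM in mac>DfosDN samples. Its difference was -0.31 (adjusted p = 0.406 by limma with Benjamini-Hochberg adjustment). Rpn6 had 38.0, 33.3 and 47.1 TPM in control and 32.6, 30.6 and 21.2 TPM in mac>DfosDN samples. Its groups did not overlap but came within a small distance of each other, and the difference was -0.48 (standard error 0.22, adjusted p = 0.309 by limma with Benjamini-Hochberg adjustment).

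Rpn9, a scaffold subunit too, had the next difference above 0 after Prosalpha5 and Prosbeta2, with 33.9, 25.4 and 39.2 TPM in control and 38.9, 41.4 and 36.4 TPM in mac>DfosDN samples. The groups overlapped, and the difference was 0.26 (adjusted p = 0.569 by limma with Benjamini-Hochberg adjustment). Of its last 500 exon bases 125 overlap CG10365 on the opposite strand. Rpn3 and Rpn7 had differences of -0.33 and 0.07. Rpn12 had 113, 197 and 125 reads in the control group, and 52 and 136 reads in the second and the third mac>DfosDN sample. Its first mac>DfosDN sample held either 190 reads, at a posterior probability of 0.806, or 19, and no difference is given.

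Members tended to deviate together within a sample, and the control samples differed among themselves. The third control sample was above the mean of the 6 samples for 27 of 30 members, with a median deviation of 0.27 on the log2 scale, while the median over all genes tested was 0.01 in that sample. The first and second control samples were above it for 18 and 12 members, and the 3 mac>DfosDN samples for 12, 10 and 9. The second control sample was thus as low as the first mac>DfosDN sample by this count. Among base genes alone the control samples were above the mean for 6, 6 and 9 of 10 and the mac>DfosDN samples for 1, 3 and 2.

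**Figure D4:**
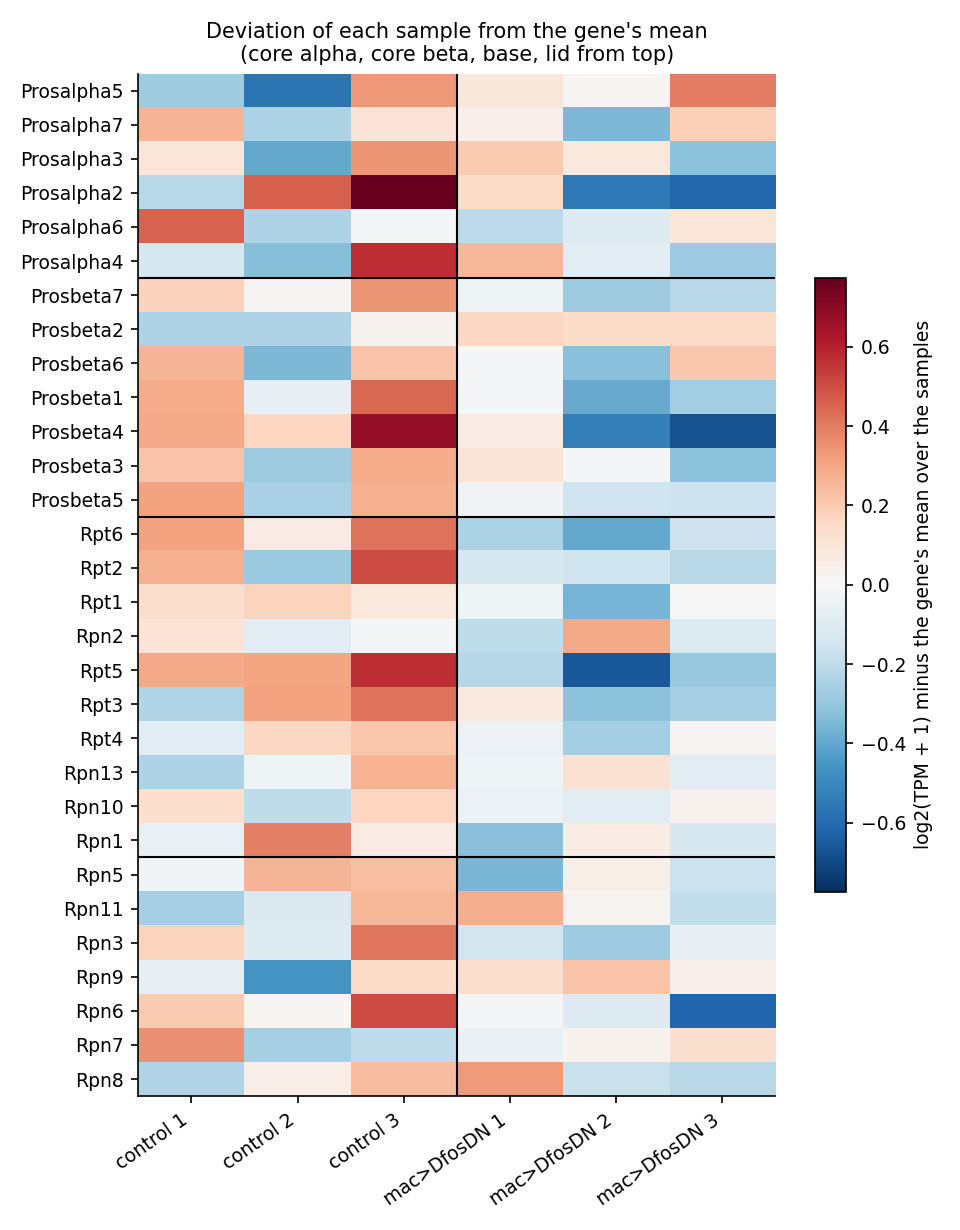
Deviation of each sample from the gene's own mean over the 6 samples, on the log2(TPM + 1) scale (colour), for the 30 tested members in rows and the 6 samples in columns, with lines between subcomplexes and between genotypes. The column of the third control sample is red for 27 of 30 genes, and the columns of the mac>DfosDN samples are mostly blue. Prosbeta2, Prosalpha5 and Rpn9 are red in all 3 of them.

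Without the third control sample 0 members were called, the median difference of the 30 was -0.14 and 20 of 30 were below 0. The third control sample also had the highest summed level of the macrophage markers. Collagen genes of the macrophage list were high in it, with Col4a1 at 649 TPM against 325 and 342 TPM in the other control samples. Hml of the same list had 878 reads in it against 18 and 52 in the other control samples. Not all of the list went this way, as gcm was lowest in it, with 39.5 TPM against 44.7 and 52.1 TPM. The part of these genes in the subunit values was not tested.

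The levels of the members differed widely. The mean level over the 6 samples ran 13.4-fold from Prosalpha4 to Prosbeta7. The order of neighbours was mostly not resolved. Of 29 neighbouring pairs in the order of control means, 27 had overlapping control samples, and the exceptions were Rpn2 above Rpt4 and Rpn8 above Prosalpha4. The coefficient of variation between control samples was 3.07% to 37.2% with a median of 18.1%. Levels were compared after division by length. If reads come from the 3′ end, as the paper's methods state, they do not grow with the length of a transcript, and the division places long genes low. In reads per 1e+06, not divided by length, Rpn2 was highest with 197, ahead of Rpt2 with 179, Prosbeta7 with 177 and Rpt6 with 162, Rpn1 had 92.1 and Rpn10, the lowest of the base, 43.5.

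The testis-type paralogues were at or near 0. They are copies of subunit genes that are known from the male germ line of flies. Of the 15, 9 were at 0 in all 6 samples: Prosalpha3T, Prosalpha4T1, Prosalpha6T, Prosbeta2R1, Prosbeta4R1, Prosbeta4R2, Prosbeta5R1, Prosbeta5R2 and Rpn12R. Taken as a true count, a 0 allows up to 3 reads in each library, or 0.305 to 0.357 reads per 1e+06, which covers counting error only. A listed 0 need not be a true count, since Prosalpha1 is listed at 0 as well. Unlike Prosalpha1, all 9 rows carry 1 Entrez number. None of the 15 passed the filter on low reads.

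The other 6 had few reads, and all but Rpt3R had them in few samples. Rpt3R, a paralogue of the ATPase Rpt3, had the most, with 0, 15 and 4 reads in the control group against 3, 5 and 26 with DfosDN. Rpt4R, a paralogue of Rpt4, had 14, 0 and 0 against 0, 2 and 0 reads. Rpt6R had 1, 0 and 0 against 0, 0 and 7 reads, and its most abundant sample was the third mac>DfosDN sample, as for Rpt3R. Prosalpha4T2 had 3 reads in the third control and 3 in the second mac>DfosDN sample and 0 in the others. Prosbeta2R2 had 1 read, in the first mac>DfosDN sample, and Rpn13R had 1 read, in the third.

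The 3 germ cell markers with restored reads were as sparse. The germ cell helicase vas had 4, 0 and 4 reads in the control group against 11, 3 and 0 with DfosDN, and nos, a translational repressor of germ cells, had 0, 9 and 0 against 11, 1 and 2. The gene pgc, which keeps germ cells transcriptionally silent, had 12, 6 and 7 reads against 4, 7 and 0. The values of bam were not 0 throughout but could not be turned into whole reads, so its level is not known. The third mac>DfosDN sample, with 26 reads of Rpt3R, had 0 reads of vas, 2 of nos and 0 of pgc. The first, with 3 reads of Rpt3R, had 11, 11 and 4, and the part of germ cells in these reads was not tested.

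The partners of the proteasome were described from lists. Among the assembly factors and activators 0 of 6 genes were called, 5 were above 0 and the median difference was 0.10. REG, the activator cap of nuclear proteasomes, had 142, 129 and 178 TPM in control and 176, 230 and 175 TPM in mac>DfosDN samples, with groups that overlapped and a difference of 0.37 (adjusted p = 0.307 by limma with Benjamini-Hochberg adjustment). Pomp, the chaperone of core particle assembly, was the 1 gene of the list below 0, at -0.31. Sem1, a small lid subunit whose symbol is outside the rule, was at 0.13.

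Of the ubiquitin genes and the ubiquitin activating enzyme 1 of 5 was called, against 1.58% of all genes tested. Ubi-p63E, a gene of ubiquitin in tandem repeats on chromosome 3L from 3899259 to 3903184, had 191.5, 184 and 151 TPM in control and 329, 300.2 and 255 TPM in mac>DfosDN samples. Every mac>DfosDN sample was above every control sample. It rose by 0.75 (standard error 0.15, adjusted p = 0.043 by limma with Benjamini-Hochberg adjustment). The call was lost with any of the 6 samples left out, with adjusted p between 0.0559 and 0.165 and a difference between 0.64 and 0.85. Its first mac>DfosDN value rests on 7950 rather than 795 reads, with a posterior probability of 0.984, and if every value takes its smallest possible power the difference is -0.34. It was also not called with a pseudocount of 0.1 or without the filter on low reads, at adjusted p of 0.0546 and 0.108.

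The second gene of this kind, Ubi-p5E, had 128, 80.3 and 65.9 TPM in control and 154, 149 and 130.5 TPM in mac>DfosDN samples. The groups did not overlap, with the first control sample close to the mac>DfosDN range. The difference was 0.71 (standard error 0.22, adjusted p = 0.151 by limma with Benjamini-Hochberg adjustment), and without the first control sample it was 0.98 with an adjusted p of 0.0418. No value of Ubi-p5E rested on a larger power of 10. Ubi-p63E and Ubi-p5E share near-identical repeats, and how the counting split reads between them is not given in the sources used here. RpL40 and RpS27A, in which ubiquitin is fused to a ribosomal protein, were at -0.09 and -0.03, and the activating enzyme Uba1 was at 0.14.

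Of the 9 shuttle, segregase and deubiquitinase genes 0 were called, 6 were below 0 and the median difference was -0.08. Npl4, a cofactor of the segregase TER94, had 14.6, 8.69 and 13.9 TPM in control and 7.07, 5.10 and 10.2 TPM in mac>DfosDN samples, with groups that overlapped and a difference of -0.68 (adjusted p = 0.304 by limma with Benjamini-Hochberg adjustment). TER94 itself was at -0.35, and p47, another cofactor, at 0.33.

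The regulators around cnc were the last list. The transcription factor cnc is the fly relative of the mammalian Nrf factors, which are known to drive proteasome genes, and Keap1 restrains it. Of the 5 genes 0 were called, 3 were below 0 and the median difference was -0.41. The levels of cnc were 12.9, 13.4 and 13.7 TPM in control and 8.02, 9.95 and 9.75 TPM in mac>DfosDN samples. The groups did not overlap and the control samples were close to each other. The difference was -0.49 (standard error 0.22, 95% interval -0.97 to -0.0025, adjusted p = 0.301 by limma with Benjamini-Hochberg adjustment), and it lay between -0.54 and -0.40 with 1 sample left out at a time. Keap1 was at -0.48, Pngl, an enzyme that acts on the Nrf relative in other animals, at -0.41, and maf-S, a DNA binding partner of cnc, at 0.32. The last gene of the list, rngo, was at 0.02 and is counted in the shuttle list too.

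**Figure D5:**
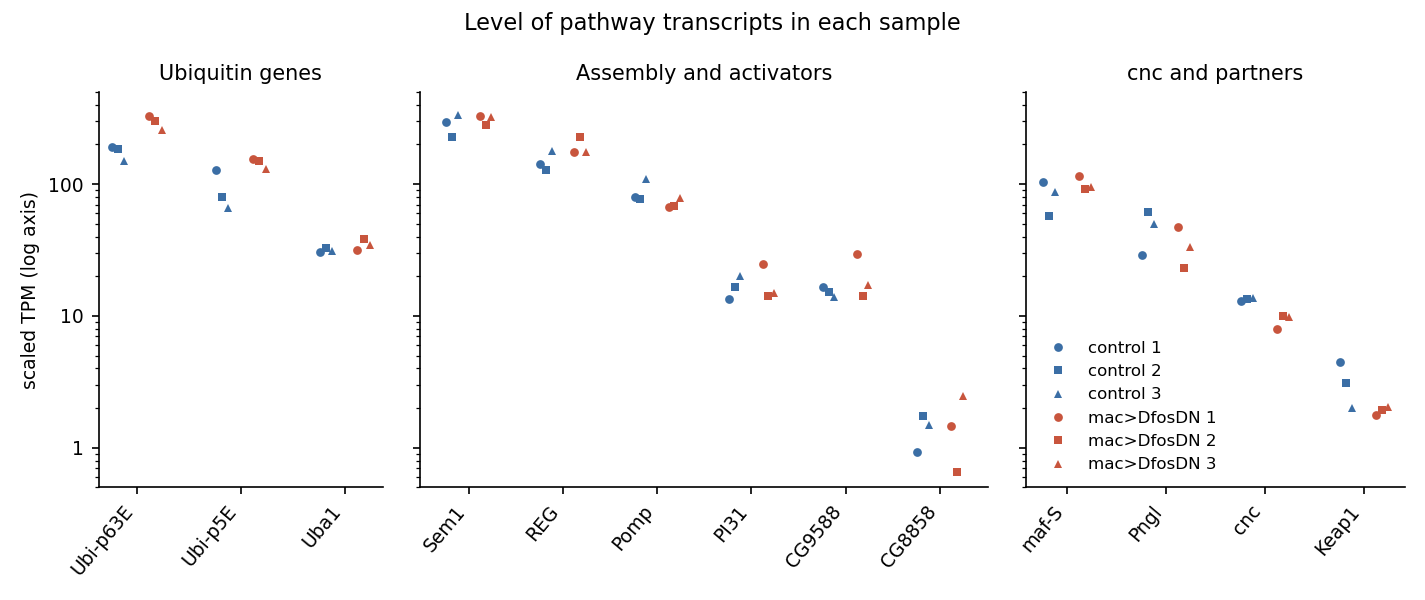
Scaled TPM (vertical log axis) of ubiquitin genes, assembly factors and activators, and cnc with its partners in each of the 6 samples, with blue marks for control and red marks for mac>DfosDN samples. All red marks of Ubi-p63E and Ubi-p5E lie above the blue ones, and all red marks of cnc, at 8.02 to 9.95 TPM, lie below them.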

How the data were processed

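RNA of macrophages from 3 control and 3 mac>DfosDN samples was sequenced, from the 3′ end of transcripts by the paper's methods and by standard Illumina protocols in the labels. The authors aligned reads to BDGP6 with STAR 2.5.1b, counted them with HTSeq 0.5.4p3, scaled the counts with the TMM step of edgeR and tested them with voom and limma. The deposited values are not these counts but TPM, and from 1 upward they lack the decimal point, for a reason not given in the sources used here.

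Exon lengths came from the Ensembl BDGP6.54 annotation, a later build than the authors', or for 90 genes from the values, within 25% of the annotation. The power of 10 was chosen by a negative binomial model with 1 mean over the 6 samples, and genes with a posterior probability under 0.9 were set aside. Of 17494 genes 5335 were at 0 throughout, 42 lacked a length, whole reads were not found for 35, 347 were set aside and 11735 were restored. Of the intact values 97.9% to 98.4% per sample were whole reads, within a tolerance of 1e-06 of a read. Choosing the power from the other samples counteracts true differences near 10-fold.

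Genes tested had 10 or more reads, at the median library size, in 3 or more samples and 15 or more in all. The scripts were tested on simulated data. Limma 3.58.1 in R 4.3.3 was used with an intensity trend on log2(TPM + 1), and Python 3.11.15 with NumPy 2.4.6, SciPy 1.17.1 and pandas 2.3.3. The members, the lists and the alternatives were chosen with earlier results of these data known. Values in every sample are given for the 3 largest differences either way, the highest and lowest level of each subcomplex, the catalytic genes and testis-type genes with reads. Rpt1, Rpn6 and Rpn11 were added after their values were seen. Alternatives were other restorations, scalings, filters, pseudocounts of 0.1 and 5, limma-voom, reads per 1e+06, a replicate block and left-out samples.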

Additional observations from a re-analysis of the deposited data

How the results depend on the processing

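The count of called genes depended on the restoration and the test. Against 119 of 7542 genes, 269 were called when the restoration used a mean for each genotype, 77 with a posterior limit of 0.99, 18 with the smallest power for every value, 6 without the filter on low reads, 185 with limma-voom, 248 on reads per 1e+06, and 11 to 92 with 1 sample left out at a time. With other scaling, pseudocounts of 0.1 or 5, or no posterior limit the count was 81 to 136. Among the subunit genes the count was 1 rather than 0 (Rpt5) with a mean for each genotype, with limma-voom and on reads per 1e+06, and it was 0 with any sample left out. Their median difference of -0.17 was -0.32 with the smallest power for every value and between -0.26 and -0.14 with 1 sample left out at a time, and it was below 0 in each of these.

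Single differences were followed through the alternatives for 14 members and some partner genes, and not for the other members. Among those followed, the smallest power for every value changed the sign for Prosbeta2 (-1.85), Prosbeta4 (0.32), Prosbeta5 (0.84) and Ubi-p63E (-0.34). For Ubi-p63E the adjusted p was then 0.884 by limma with Benjamini-Hochberg adjustment. With 1 sample left out at a time the difference of Prosalpha4 lay between -0.25 and 0.20 and that of Rpn8 between -0.21 and 0.076. At the posterior limit of 0.99 Prosalpha2, Prosalpha4, Prosbeta4 and Ubi-p63E gave no value. With a mean for each genotype in the restoration Prosalpha2 and Prosalpha4 gave no value, and 28 members were tested.

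The samples of the same number in both groups did not deviate together over all genes (correlations of -0.02, 0.03 and 0.04 over 7542 genes). Whether they share a collection or a batch is not given in the sources used here. A correlation over all genes cannot settle it, since a shared effect on some genes could be missed. With the replicate number as a block 59 genes were called, 30 of them lower, and 0 subunit genes.

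With 3 samples a group, small changes of a subunit gene were not detectable, and a difference of -0.78 (Rpt5) did not pass the main test. The 95% intervals of 0.30 to 0.64 to either side are not adjusted for the number of genes. Differences near 10-fold can be lost in the restoration.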
